A study of Mus musculus with 400 samples.

Results

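The Mex3 RNA-binding protein family of the mouse has 4 members, Mex3a, Mex3b, Mex3c and Mex3d, and all 4 were found among the 33496 genes of the count table by matching Ensembl identifiers to mouse symbols. The series measured polyA RNA in 400 single epithelial cells of the small intestine that were sorted as Lgr5-high. The Lgr5 protein is a receptor that amplifies Wnt signals, and dividing stem cells at the crypt base are known by it. The cells came from Lgr5 GFP/+ mice, in which 1 Lgr5 allele carries the EGFP-IRES-Cre-ERT2 insertion. That allele is known to be silenced in part of the crypts, so GFP samples only some of them, and no age is given for the mice. The crypts were taken from the duodenum and jejunum, dispersed with EDTA and dispase, and dead cells were excluded with DAPI. Single cells were captured on a Fluidigm C1 high-throughput chip. The labels name no animal and no second group, so the population stands as 1 sample, cells were not taken as replicates, and there is no p-value.

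The analysis used the 380 cells with at least 10000 counts. Their totals ranged from 10766 to 70133 counts with a median of 32112, and the median cell had a count for 8616 genes. The sample titles carry a number from 1 to 10, called the library set here, with 36 to 39 kept cells in each set, and standard deviations below are over these sets. Markers of the labelled identity were present, with a count of Lgr5 in 97.9% of cells, the crypt base glycoprotein Olfm4 in 97.9%, the stem cell transcription factor Ascl2 in 91.1% and the epithelial adhesion molecule Epcam in 100%. Not every epithelial gene stood so high, since the intestinal transcription factor gene Cdx2 had a count in 33.7%. Of genes foreign to the sorted cells, counts were found in 0.263% (Cd8a, T cells), 2.89% (Col1a1, fibroblasts), 4.74% (Alpi, enterocytes), 10.3% (Cd3e, T cells), 28.4% (Ptprc, leukocytes) and 44.5% (Pecam1, endothelium) of the same cells.

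Mex3 proteins bind RNA through a pair of KH domains and carry a RING finger, a fold that transfers ubiquitin, at their C-terminal end. The family is named after the worm gene mex-3, which restricts where embryonic cell fate factors are translated. In human cells MEX3A represses the intestinal transcription factor CDX2, MEX3C acts on mRNAs of class I histocompatibility molecules, and MEX3D binds an AU-rich element of the BCL2 mRNA. By its title, the study concerns Mex3a as the mark of a slowly dividing share of Lgr5+ cells.

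The members are paralogs, so it matters for the counts how much sequence they share. A stretch of strong likeness between Mex3a, Mex3b and Mex3d is the end of the coding sequence, which encodes the RING finger region. Its last bases before the stop codon are printed 5′ to 3′ on the strand of the gene, from the GRCm38 genome with GENCODE M21 annotation, at chr3:88537065-88537178 (plus) for Mex3a, chr7:82870093-82870206 (plus) for Mex3b and chr10:80381228-80381341 (minus) for Mex3d. Capitals mark bases that are the same in all 3 genes, which holds for 84 bases (73.7%).
Mex3a: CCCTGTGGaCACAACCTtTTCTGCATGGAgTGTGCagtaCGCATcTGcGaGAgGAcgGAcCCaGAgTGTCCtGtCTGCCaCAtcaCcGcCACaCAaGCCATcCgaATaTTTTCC
Mex3b: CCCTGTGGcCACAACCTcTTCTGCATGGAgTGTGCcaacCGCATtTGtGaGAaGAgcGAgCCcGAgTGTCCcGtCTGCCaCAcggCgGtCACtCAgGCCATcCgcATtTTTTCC
Mex3d: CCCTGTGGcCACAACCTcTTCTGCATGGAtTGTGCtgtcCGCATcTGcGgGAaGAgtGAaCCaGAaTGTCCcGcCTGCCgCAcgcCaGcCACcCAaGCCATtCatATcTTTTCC
Mex3a matched Mex3b at 91 bases (79.8%), Mex3a matched Mex3d at 91 (79.8%), and Mex3b matched Mex3d at 92 (80.7%). The differing bases are scattered. The longest unbroken run shared by any pair of Mex3 transcripts was 29 bases, between Mex3b and Mex3d in this region, and between Mex3a and the other members it was 21 bases with Mex3b, 19 with Mex3c and 14 with Mex3d. Mex3c shared a run of 26 bases with Mex3b and one of 26 with Mex3d, both in the same end of the coding sequence. The read length is not given in the sources used here, so which reads could fall on more than 1 member was not tested. Exons of Mex3a overlap the small RNA gene Mir1905 and exons of Mex3d overlap Gm22721, neither of which is a row of the table used here.

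On GRCm38, the build named in the submitters' processing notes, the genes lie on different chromosomes, with positions from GENCODE M21. Mex3a (ENSMUSG00000074480.4) spans 88532395 to 88541396 of chromosome 3 on the plus strand, with 5778 bases of exon. Mex3b (ENSMUSG00000057706) spans 82867333 to 82871515 of chromosome 7 on the plus strand, with 3355 bases of exon. Mex3c (ENSMUSG00000037253.8) spans 73573044 to 73592575 of chromosome 18 on the plus strand, with 3738 bases of exon. Mex3d (ENSMUSG00000048696) spans 80380355 to 80387659 of chromosome 10 on the minus strand, with 3266 bases of exon. All 4 are protein-coding.

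Mex3c was the member found in most cells. It had a count in 66.6% of the 380 cells (95% exact Clopper-Pearson interval 61.6 to 71.3). Mex3d had a count in 60 cells, or 15.8% (12.3 to 19.9). Mex3a had a count in 47 cells, or 12.4% (9.23 to 16.1), and Mex3b in 22 cells, or 5.79% (3.66 to 8.63). Intervals of shares cover counting error only, here and throughout. The shares of Mex3a, Mex3b and Mex3d lay within the range of these foreign genes, so shares of this size do not by themselves show expression in those cells, while the share of Mex3c lay above that range.

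Counts per cell were low for every member. Mex3c had 760 counts in all and at most 15 in a cell, with 1 count in 92 cells, 2 in 52 cells and 5 or more in 59 cells. Mex3d had at most 9 counts in a cell, with 1 count in 32 cells, 2 in 9 cells and 5 or more in 4 cells. Mex3a had 96 counts in all and at most 6 in a cell, with 1 count in 29 cells, 2 in 5 cells and 5 or more in 5 cells. Mex3b had 29 counts in all and at most 4 in a cell, with 1 count in 18 cells. The variance over the mean of the counts was 2.90 for Mex3c, 3.05 for Mex3d, 3.03 for Mex3a and 1.69 for Mex3b. A few cells held much of the signal of the 3 rarer members, since the 10 cells with the most counts had 39.1% of all Mex3d counts, 50% of all Mex3a counts and 58.6% of all Mex3b counts, against 13.6% for Mex3c. Because the table reached at most 36 counts for any gene in a cell, abundant genes may be compressed on this scale, which was not tested. No Mex3 count came near that maximum.

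**Figure D1:**
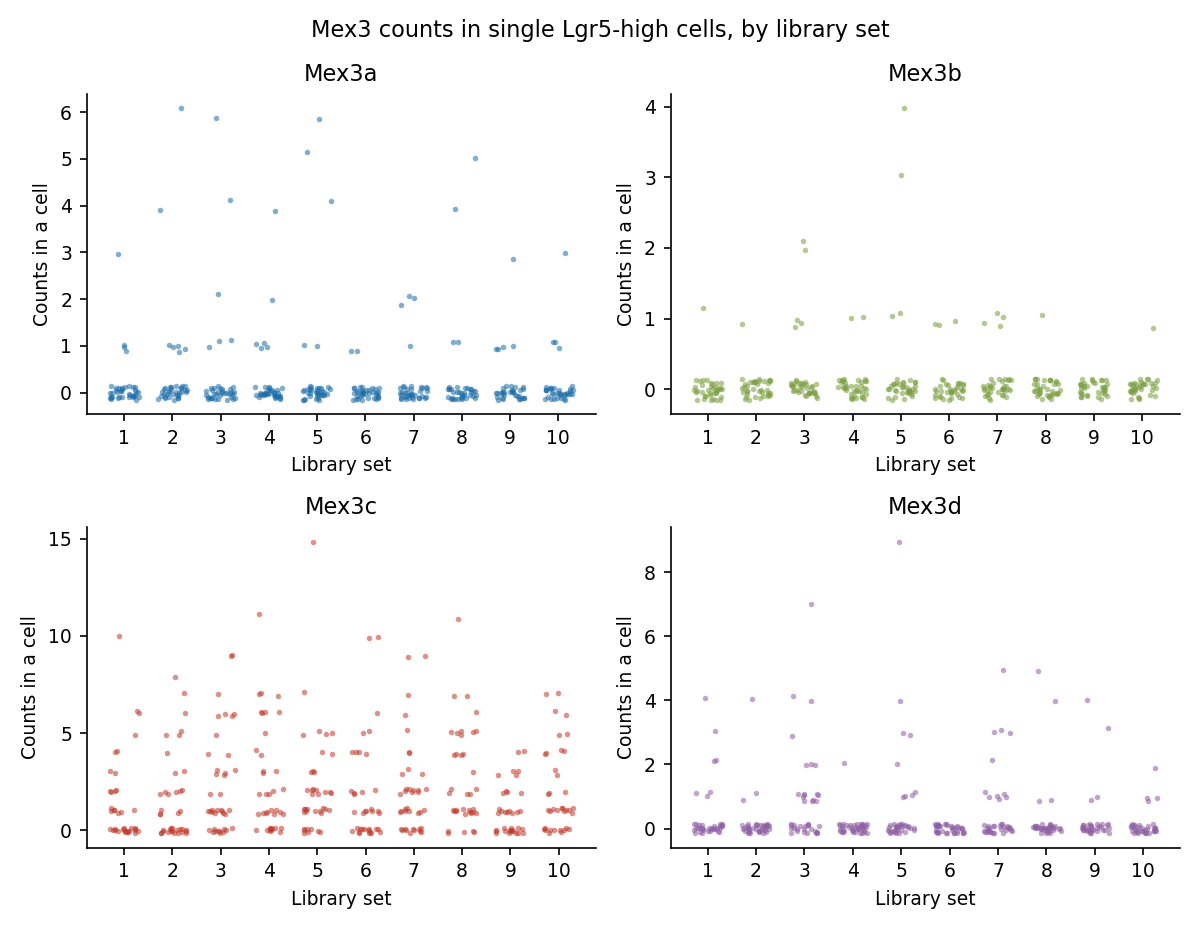
Counts of each Mex3 gene in single Lgr5-high cells (y axis, counts in a cell, points shifted slightly so that they do not hide each other) by library set (x axis), 1 point a cell for 380 cells. Mex3c reached 15 counts, Mex3d 9, Mex3a 6 and Mex3b 4, and cells with several counts were found in more than 1 set for each gene.

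To compare levels between the genes, CPM (a cell's counts scaled to a common total) were averaged over cells and divided by the exon length in kilobases. This scaling takes counts to grow with exon length, which was not tested for these libraries. Per kilobase, Mex3c had 16.3 ± 4.46 CPM (SD over 10 library sets), Mex3d 3.01 ± 2.44, Mex3a 1.38 ± 0.737 and Mex3b 0.656 ± 0.656. Mex3c was above Mex3d in 10 of 10 sets, with a difference of 13.3 ± 5.07 CPM per kilobase, larger than its spread between sets. The neighbours further down this order did not differ beyond their spread: Mex3d was above Mex3a in 7 of 10 sets (1.61 ± 2.33) and Mex3a above Mex3b in 8 of 10 sets (0.724 ± 0.863). Without the length scaling, mean levels over cells were 60.99 CPM for Mex3c, 9.84 for Mex3d, 7.98 for Mex3a and 2.20 for Mex3b. On that scale Mex3a was above Mex3b by 5.75 ± 4.31 CPM in 9 of 10 sets, larger than the spread. Mex3a has the longer exons, so the call for this pair depends on the length scaling.

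Among other RNA regulators the rarer Mex3 genes stood low in level per kilobase, an order that rests on the same untested length scaling. Of 30 other KH domain genes, whose median was 9.40 CPM per kilobase, 9 lay above Mex3c, 24 above Mex3d, 24 above Mex3a and 27 above Mex3b. This list ran from the poly(C)-binding protein gene Pcbp1 at 119.4 and Hnrnpk at 59.2 CPM per kilobase to the RNA-binding protein genes Igf2bp1 at 0.539 and Nova1 at 0.529. Of 12 measured genes of ubiquitin ligases that also bind RNA, with a median of 7.74 CPM per kilobase, only Mkrn1 (19.6) lay above Mex3c, while 10 lay above Mex3d, 11 above Mex3a and 12 above Mex3b. All 26 genes of the mRNA decay machinery lay above Mex3d, Mex3a and Mex3b per kilobase, from Zfp36l1, which recruits decay factors to AU-rich mRNAs, at 37.7 CPM to the exonuclease gene Xrn1 at 3.20 CPM, and 9 of them lay above Mex3c. The median share of cells with a count was 69.2% over the 30 KH genes, 56.7% over the 12 ligase genes and 70.8% over the 26 decay genes, against 14.1% over the 4 Mex3 genes.

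The library sets differed most for Mex3d. The number of cells with a Mex3d count in sets 1 to 10 was 7, 3, 17, 1, 9, 0, 11, 4, 4 and 4. Set 3 had 17 of 39 cells, or 43.6% (27.8 to 60.4), and set 7 had 11 of 39, while set 6 had 0 of 37 cells, which allows a share of up to 8.11% by 3 counts and 9.49% by the exact interval, and set 4 had 1 of 39. The share of Mex3d cells thus had a lowest, median and highest set value of 0, 10.96 and 43.6%, with an SD of 13.1 points. Sets 3, 7 and 5 held 37 of the 60 cells with Mex3d (61.7%). Their median totals were 35807, 37769 and 33079 counts, within a range over all sets of 29070 to 37769, of which set 7 was the highest. Over the 10 sets the share of Mex3d rose with the median total (Spearman correlation 0.81). For Mex3a, Mex3b and Mex3c this correlation was −0.04, 0.16 and −0.02. After each cell was thinned to an equal depth of 19169 counts, the set shares of Mex3d still ran between 0 and 33.4%. Their correlation with the median total was then 0.76, and the part of depth in the set differences was not tested.

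For the other members the sets lay closer together relative to the number of cells. Mex3a had a lowest, median and highest set share of 5.41, 11.8 and 17.9% (SD 3.54 points) and a count in all 10 sets. Mex3b had 0, 3.92 and 12.8% (SD 4.32), with 0 of 36 cells in set 9, which allows up to 8.33% by 3 counts and 9.74% by the exact interval. Mex3c had 50, 71.03 and 86.5% (SD 12.5). The variance of the set shares over the variance that cell counting alone gives was 4.99 for Mex3d, 2.65 for Mex3c, 1.30 for Mex3b and 0.440 for Mex3a. Among 1352 genes found in a like share of cells, within 2 percentage points, 97.1% had a smaller ratio than Mex3d (median 1.72). The same place among genes of like share was 68.6% for Mex3c, 36.1% for Mex3b and 1.93% for Mex3a. The share of cells with Mex3a was thus even over the sets and that of Mex3d was not. Mean Mex3a levels were less even, from 1.89 CPM in set 6 to 16.7 CPM in set 2. What sets the library sets apart (chip part, sequencing lane or animal) is not given in the labels, so these sources cannot be told apart.

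**Figure D2:**
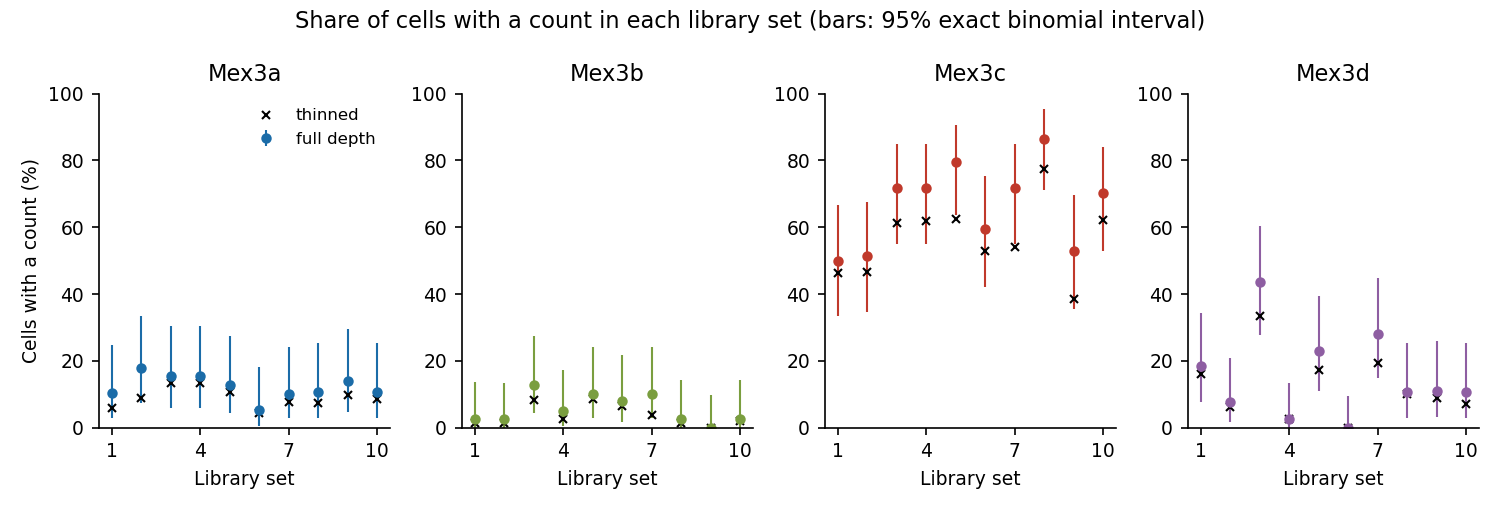
Share of cells with a count of each Mex3 gene (y axis, percent) in each of the 10 library sets (x axis), at full depth (circles, with 95% exact binomial intervals) and after thinning to an equal depth (crosses). Mex3d ran between 0 and 43.6% at full depth, while Mex3a stayed between 5.41 and 17.9%.

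Detection of Mex3c followed the depth of a cell. In quartiles of total counts, from the lowest (10766 to 25544 counts) to the highest (38139 to 70133), with 95 cells in each, the share of cells with Mex3c was 52.6, 65.3, 69.5 and 78.9%. Mex3d had 8.42, 11.6, 21.1 and 22.1%, Mex3a 12.6, 8.42, 12.6 and 15.8%, and Mex3b 4.21, 5.26, 2.11 and 11.6%. Mex3c and Mex3d thus had a higher share in each deeper quartile, and Mex3a and Mex3b did not follow the order of depth.

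When each cell was thinned to 19169 counts, which left out the 38 shallower cells, the quartile shares of Mex3c came to 53.2, 56.2, 55.9 and 58.5%. Those of Mex3d were 11.4, 9.25, 14.4 and 13.96%, those of Mex3a 10.1, 7.23, 8.64 and 10.6%, and those of Mex3b 4.39, 3.68, 1.36 and 5.45%. Over all cells that deep the thinned shares were 56.3% for Mex3c, 12.3% for Mex3d, 9.05% for Mex3a and 3.65% for Mex3b, in the same order as at full depth. The Spearman correlation of a gene's count with a cell's total over the 380 cells was 0.30 for Mex3c, 0.17 for Mex3d, 0.12 for Mex3b and 0.03 for Mex3a, as a description of cells that share 1 population. Genes found in a like share of cells had medians of 0.28, 0.08, 0.05 and 0.07 in the same order of genes. Of those genes, 60.3% had a lower value than Mex3c, 86.9% than Mex3d, 87.8% than Mex3b and 27.8% than Mex3a.

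**Figure D3:**
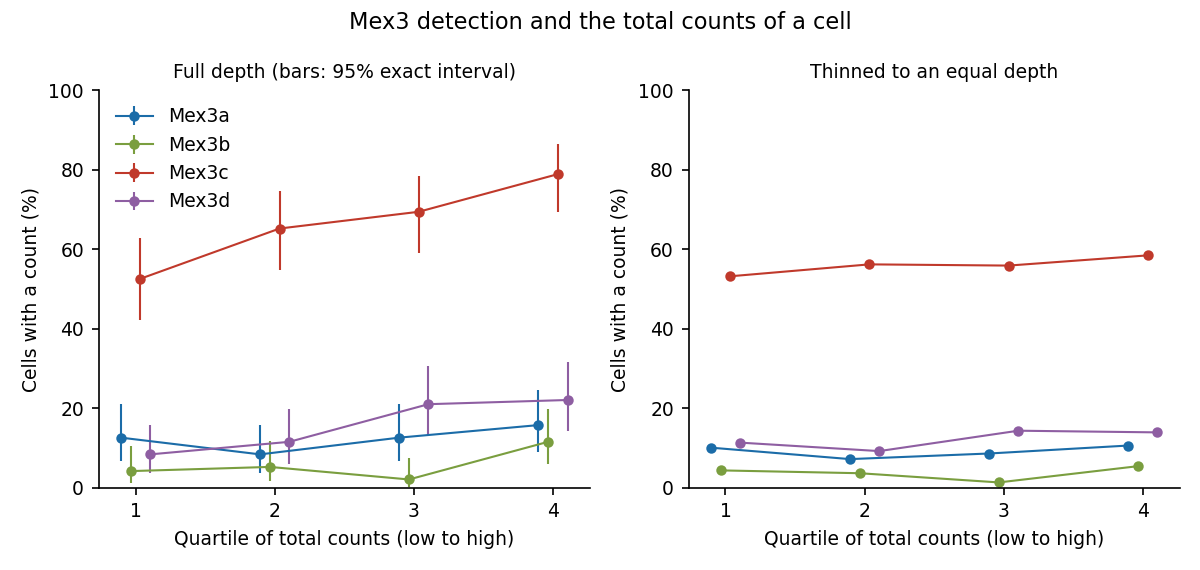
Share of cells with a count of each Mex3 gene (y axis, percent) by quartile of a cell's total counts (x axis, low to high), at full depth (left, 95 cells a quartile, bars are 95% exact intervals) and after thinning to an equal depth (right, no intervals drawn). Mex3c ran between 52.6 and 78.9% at full depth and between 53.2 and 58.5% after thinning.

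Most cells had a count of 1 Mex3 gene at most. Of the 380 cells, 24.2% had none of the 4, 53.2% had 1, 20.5% (78 cells) had 2, 2.11% (8 cells) had 3 and 0 had all 4. Cells with more members were deeper, with median totals of 29073, 32164.5, 36433.5 and 41750.5 counts for 0, 1, 2 and 3 members. Mex3c alone was the most frequent state with 44.5% of cells. The next were Mex3c with Mex3d in 37 cells and Mex3a with Mex3c in 28, then Mex3a alone in 15 cells, Mex3d alone in 14, Mex3b with Mex3c in 11 and Mex3b alone in 4. Of the 8 cells with 3 members, 5 had Mex3b, Mex3c and Mex3d, 2 had Mex3a, Mex3c and Mex3d, and 1 had Mex3a, Mex3b and Mex3c.

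Mex3c was found as often in cells with Mex3a as in cells without it. Its share was 65.96% (50.7 to 79.1) among the 47 cells with Mex3a and 66.7% (61.3 to 71.7) among the rest. Both genes were found in 31 cells, and the product of their shares gives 31.3. Its share was 77.3% (54.6 to 92.2) among the 22 cells with Mex3b and 65.9% (60.8 to 70.8) among cells without it, with 17 cells against a product of 14.6. The share of Mex3d was 17.4% (12.9 to 22.6) among cells with Mex3c and 12.6% (7.38 to 19.7) among cells without it, with 44 cells against a product of 39.9, and at equal depth these were 23.2 and 23.7 cells. For these 3 pairs the intervals overlapped and the number of shared cells lay near the product of the shares.

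Mex3a and Mex3d were seen together in fewer cells than the product of their shares. Mex3d had a count in 3 of 47 cells with Mex3a, or 6.38% (1.34 to 17.5), and in 57 of the cells without Mex3a, or 17.1% (13.2 to 21.6). The intervals overlap, and the exact interval of the 3 shared cells, 0.619 to 8.77 cells, includes the 7.42 cells of the product and the 7.75 cells that products taken within library sets give. Each of the 3 shared cells had 1 Mex3a count, and none of the 18 cells with 2 or more Mex3a counts had Mex3d, which allows a share of up to 16.7% by 3 cells and 18.5% by the exact interval. Mex3d averaged 2.26 CPM in cells with Mex3a and 10.9 CPM in cells without. Mex3a averaged 1.28 CPM in cells with Mex3d and 9.24 CPM in cells without. At equal depth, the expected number of cells with both was 0.870, against a product of 3.82, and the log2 ratio of Mex3a was −2.15 (SD 0.29, below 0 in 6 of 6 library sets). In 4 of those 6 sets no cell with Mex3d had a Mex3a count, so the ratio and its small spread there follow from the pseudocount. By the exact interval of the number of shared cells alone, the shortfall is within counting error, and no test of it was run.

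Mex3b was too rare for its pairs to be told apart. Mex3b and Mex3a shared 1 cell (exact interval 0.0253 to 5.57), against a product of 2.72. That cell, in library set 5, had 6 counts of Mex3a and 4 of Mex3b, which no kept cell exceeded for either gene, with a total of 31890 counts near the median. Mex3b and Mex3d shared 6 cells (2.20 to 13.1), against a product of 3.47 over all cells and 4.76 within library sets. Of those 6 cells, 4 were in set 3 and 2 in set 7, where Mex3d was most often found, and their totals of 35807 to 50484 counts all lay above the median cell. The share of Mex3d was 27.3% (10.7 to 50.2) among cells with Mex3b and 15.1% (11.5 to 19.2) among cells without, and at equal depth the shared cells came to 1.81 against 1.54.

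**Figure D4:**
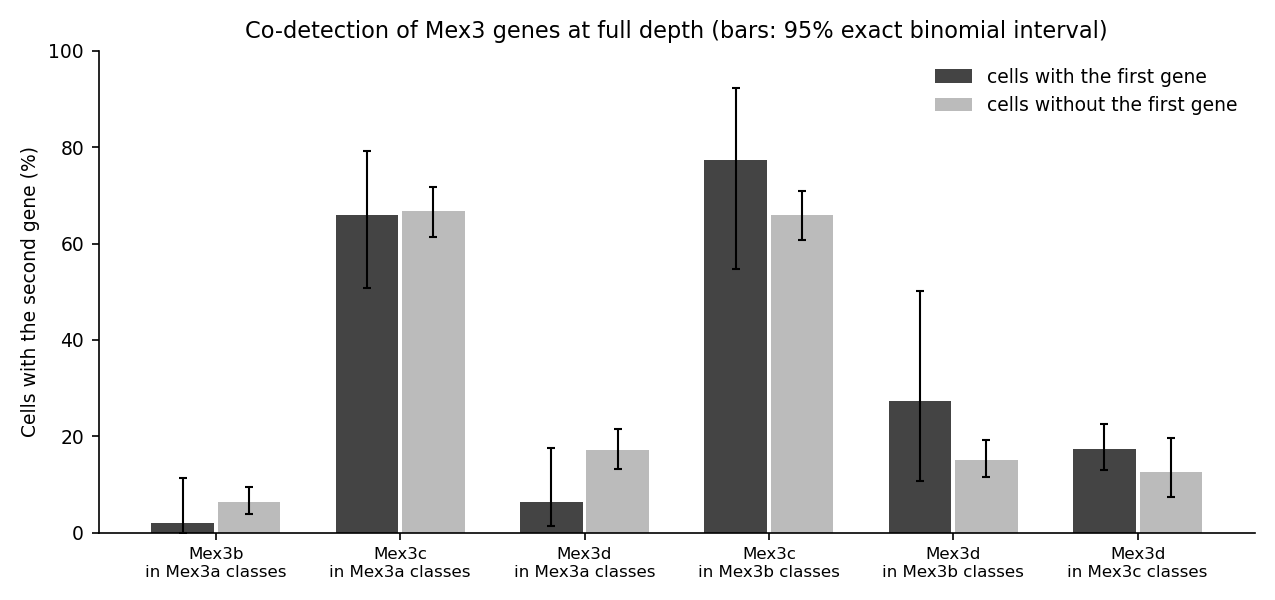
Share of cells with the second gene of each pair (y axis, percent) in cells with (dark) and without (light) the first gene (x axis, the 6 pairs), at full depth in 380 cells. Bars are shares and error bars 95% exact binomial intervals. The pair of Mex3a and Mex3d has 6.38% against 17.1%, and the intervals overlap in each pair.

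The counts of Mex3a and Mex3d followed no order with the level of Mex3c. Among cells with 4 or more, 2 to 3, 1 and 0 counts of Mex3c, Mex3a had a count in 9.52, 14.3, 13.04 and 12.6% of cells, Mex3d in 17.9, 19.5, 15.2 and 12.6%, and Mex3b in 7.14, 9.09, 4.35 and 3.94%. The median totals of these classes were 36060, 33503, 29900.5 and 29648 counts. Mean Mex3a levels were 7.99 CPM with and 7.97 CPM without Mex3c, and mean Mex3d levels were 9.81 and 9.92 CPM. Mean Mex3b levels were 2.54 CPM with and 1.52 CPM without Mex3c, from 22 cells with Mex3b in all, and at equal depth the log2 ratio of Mex3b was 0.32 (SD 1.13).

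The cells with and without each of Mex3a, Mex3c and Mex3d were then compared over stem cell, cell cycle and RNA regulator genes. These classes are gates within 1 population, and each cell counted by the chance that a count of the gating gene remains after thinning, which gives an expected 30.95 cells with Mex3a, 192.5 with Mex3c and 42.2 with Mex3d. The value for a gene is the log2 ratio of mean CPM (cells with over cells without, pseudocount 1 CPM). Set values were computed in the sets that held at least 3 expected cells of each class, which were 6 sets for Mex3a, 10 for Mex3c and 6 for Mex3d. For Mex3b, with 12.5 expected cells and 1 such set, no ratios are given. Over all 20831 genes tested, 43.5% had a ratio above 0 for Mex3a, 48.5% for Mex3c and 42.7% for Mex3d, with medians of −0.06, −0.01 and −0.06. Counts above 0 are to be read against these shares.

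Stem cell genes were at like levels with and without Mex3c. Of the 20 genes, 11 were above 0, with a median of 0.02 (SD over sets 0.11). Znrf3, a Wnt antagonist, lay at 0.22 and the gastrokine Gkn3 at 0.21, while Olfm4 lay at −0.16 and the TNF receptor family gene Tnfrsf19 at −0.26. Lgr5 had 196.2 CPM with and 215.9 CPM without Mex3c (log2 ratio −0.14, SD 0.32). For Mex3a 8 of 20 were above 0, with a median of −0.02 (SD 0.13), from Gkn3 and the BMP co-receptor gene Rgmb at 0.20 to Znrf3 at −0.25 and Ascl2 at −0.29.

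In cells with Mex3d the stem cell genes lay apart from each other. Of the 20 genes, 5 were above 0 and the median was −0.10, smaller than its SD over sets of 0.20. Olfm4 had 159.4 CPM with and 198.2 CPM without Mex3d, a log2 ratio of −0.31 (SD 0.14), below 0 in 6 of 6 sets. Ascl2 had 208.98 CPM with and 150.6 CPM without Mex3d, a ratio of 0.47 (SD 0.30), above 0 in 6 of 6 sets. Lgr5 had 177.6 CPM with and 208.7 CPM without Mex3d, a ratio of −0.23 (SD 0.17), above 0 in 1 of 6 sets. These 3 ratios were larger than their spread between sets, with Ascl2 above 0 and Olfm4 and Lgr5 below. Ascl2 and Olfm4 were named as the ends of the list. Over all genes tested, 1.21% lay above 0 and 3.66% below 0 by more than their SD for Mex3d, and 0.792% were above 0 and 4.05% below 0 in every set. Mean totals of the cells were 35053 counts with and 33760 counts without Mex3d, and the part of depth in these ratios was not tested. The ratios themselves pool the cells of all sets, while sets 3, 7 and 5 held 37 of the 60 cells with Mex3d. The part of the library sets in the pooled ratios was not tested either. The receptor tyrosine kinase gene Ephb3 lay at −0.30 (SD 0.63) and the EGF receptor antagonist gene Lrig1 at 0.03.

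With the cells of all sets pooled, proliferation genes showed no common direction for any of the 3 gating genes. Mki67, which encodes the Ki-67 antigen, had 313.9 CPM with and 313.4 CPM without Mex3c (log2 ratio 0.00, SD 0.15), and 296.6 CPM with and 316.1 CPM without Mex3d (−0.09, SD 0.23). For Mex3a, Mki67 stood at 305.6 against 314.5 CPM (−0.04, SD 0.15). The mitotic topoisomerase gene Top2a lay at −0.01 for Mex3c (SD 0.11), 0.03 for Mex3d (SD 0.21) and 0.02 for Mex3a (SD 0.15). Of 42 S phase genes, 18 were above 0 for Mex3c (median −0.03, SD 0.17), 26 for Mex3d (0.12, SD 0.16) and 21 for Mex3a (0.00, SD 0.37). For Mex3a the S phase median within single sets averaged −0.195 and was above 0 in 1 of 6 sets. For Mex3d the S phase median within single sets averaged 0.03 and was above 0 in 4 of 6 sets. Of 52 G2 and M phase genes, 29 were above 0 for Mex3c (0.01, SD 0.10), 27 for Mex3d (0.01, SD 0.20) and 27 for Mex3a (0.02, SD 0.09). Each list median was smaller than its SD over sets.

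Single cell cycle genes spread to both sides, and those named are the ends of their lists. Over all genes tested, 0.346% were above 0 and 3.65% below 0 in every set for Mex3a, and 0.0624% and 0.048% for Mex3c. By more than their SD, 0.691% lay above 0 and 4.45% below 0 for Mex3a, and 0.696% and 0.35% for Mex3c. For Mex3d, the ubiquitin ligase gene Ubr7 had 65.8 CPM with and 40.7 CPM without it (ratio 0.68, SD 0.37, above 0 in 6 of 6 sets), while Clspn, a replication checkpoint gene, lay at −0.33 and cyclin E2 (Ccne2) at −0.45. The mitotic kinase genes Bub1 and Nek2 lay at 0.31 and 0.29, and the kinesin gene Kif2c and the kinase gene Aurkb at −0.49 and −0.51. For Mex3c, Kif2c had 61.9 CPM with and 48.4 CPM without it, a ratio of 0.35 (SD 0.39, above 0 in 10 of 10 sets), and Bub1 lay at 0.20 (SD 0.67). The lowest G2 and M phase genes for Mex3c were Anln at −0.15 and the centromere gene Hjurp at −0.18, and in S phase Ubr7 (0.26) and Ung (0.24) stood against Ccne2 (−0.31) and Dscc1 (−0.50). For Mex3a, the helicase gene Brip1 lay at 0.48 and Wdr76 at 0.44, and Casp8ap2 at −0.78 (36.4 CPM with and 63.1 CPM without, SD 0.53, below 0 in 6 of 6 sets) and the replication licensing gene Cdc6 at −0.996 (SD 1.87). In G2 and M phase for Mex3a, Nek2 lay at 0.50 (SD 2.42) and Bub1 at 0.25, and Gtse1 at −0.50 and Gas2l3 at −0.73 (SD 1.82).

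RNA regulators differed little as groups. Of 30 other KH genes, 18 were above 0 for Mex3c (median 0.02, SD 0.08), 16 for Mex3d (0.03, SD 0.07) and 11 for Mex3a (−0.15, SD 0.38). For Mex3d the direction differed by how it was summed, since the list median within single sets averaged −0.08 and was above 0 in 0 of 6 sets. Qk, an RNA-binding regulator of splicing and mRNA stability, had 1.19 CPM with and 9.04 CPM without Mex3a (−2.20, SD 1.71), and lay at −0.61 (SD 1.74) for Mex3c and 0.57 (SD 1.84) for Mex3d. At such low levels a single count moves these ratios. For Mex3a the ribosome assembly gene Pno1 (0.46) and the fragile X gene Fmr1 (0.41) were highest and Igf2bp1 (−1.59) was next to lowest. For Mex3c the highest were Tdrkh (0.33) and Igf2bp1 (0.20) and the next to lowest Pcbp4 (−0.26), and for Mex3d Pcbp4 stood at 0.44 and Tdrkh and Pcbp3 at −0.79 and −0.81.

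Of 26 mRNA decay genes, 17 were above 0 for Mex3c (median 0.05, SD 0.11), 13 for Mex3d (0.01, SD 0.26) and 17 for Mex3a (0.10, SD 0.24). The exonuclease gene Xrn1 lay at −0.32 for Mex3c (SD 0.28, above 0 in 1 of 10 sets), and the Argonaute gene Ago1 at −0.29 for Mex3c and −0.83 for Mex3d (18.7 CPM with and 33.9 CPM without Mex3d, SD 0.62). The decay factor gene Patl1 lay at 0.25 for Mex3c, 0.70 for Mex3d and −0.99 for Mex3a, each with an SD of 0.96 or more. The deadenylase gene Cnot7 lay at 0.20 for Mex3c and 0.31 for Mex3d, Edc4 at −0.56 for Mex3d, and for Mex3a the decapping genes Edc3 and Dcp1a at 0.62 and 0.61 and the scaffold gene Cnot1 at −0.29. Of 12 RNA-binding ubiquitin ligase genes, 6 were above 0 for Mex3c (−0.02, SD 0.26), 5 for Mex3d (−0.05, SD 0.50) and 6 for Mex3a (−0.02, SD 0.29). For Mex3d the median of the ligase list within single sets averaged −0.33 and was above 0 in 1 of 6 sets. The ends of this list were Trim56 (0.42) and Trim71 (0.34) against Zfp598 (−0.17) and Rc3h2 (−0.29) for Mex3c. They were Zfp598 (0.54) and Unk (0.32) against Rc3h2 (−0.36) and Trim71 (−0.58) for Mex3d, and Trim25 (0.36) and Unkl (0.33) against Zfp598 (−0.56) and Trim71 (−0.87) for Mex3a.

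**Figure D5:**
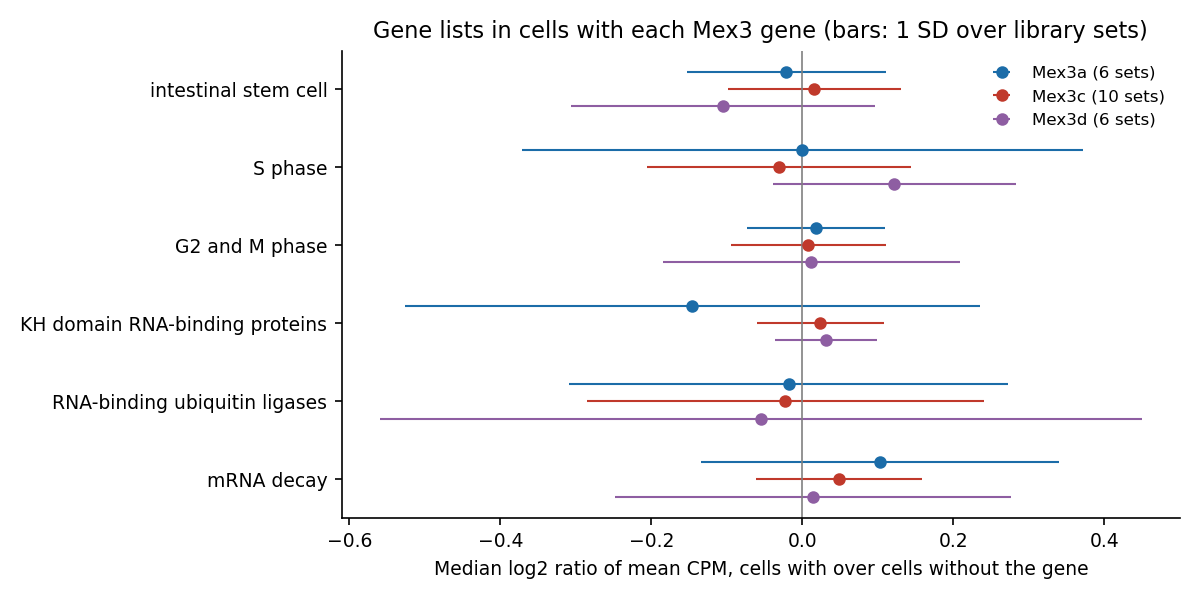
Median log2 ratio of mean CPM over the genes of 6 lists (x axis; cells with over cells without the gating gene, pseudocount 1 CPM), for Mex3a, Mex3c and Mex3d (colours). Horizontal bars are 1 SD over library sets (6, 10 and 6 sets). Every pooled median lies within 1 SD of 0, from −0.15 (KH genes, Mex3a) to 0.12 (S phase, Mex3d), while the set medians of KH genes for Mex3d averaged −0.08. The set medians of S phase genes for Mex3a averaged −0.195, and those of ubiquitin ligase genes for Mex3d averaged −0.33.

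The genes known in human cells as targets of single members showed no difference beyond the spread between sets in cells with and without them. For Mex3c, the class I light chain gene B2m had 411 CPM with and 427 CPM without it (log2 ratio −0.06, SD 0.13), and the class I heavy chain genes H2-K1 and H2-D1 lay at 0.06 (SD 0.22) and −0.07 (SD 0.24). H2-K1 and H2-D1 are alike in sequence, so their separate counts are uncertain. For Mex3d, the survival gene Bcl2 had 63.9 CPM with and 67.7 CPM without it (−0.08, SD 0.47). For Mex3a, the intestinal homeobox gene Cdx2 had 29.2 CPM with and 25.1 CPM without it (0.21, SD 2.00). None of these differences exceeded its spread between sets, and with spreads of this size the values do not show that the levels are equal.

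Markers of other cell types had counts in these cells, and none of the listed genes was at 0. For Mex3a, the medians of all 8 such lists lay below 0. They were −0.04 for Paneth (4 of 10 genes above 0), −0.26 for goblet (2 of 10), −0.56 for enteroendocrine (1 of 6) and −0.53 for tuft cell genes (1 of 8). They were −0.17 for enterocyte (2 of 11), −0.16 for immune (1 of 6), −0.15 for stromal (1 of 4) and −0.44 for endothelial genes (1 of 5). The goblet and tuft lists were below 0 in 6 of 6 sets, with SDs of 0.36 and 0.48. Such set values can rest on as few as 3 expected cells. For Mex3d the tuft list had 6 of 8 genes above 0 (median 0.17), yet 0 of 6 sets were above 0 (mean −0.37). The same direction in every set thus does not by itself show a lower level. Within the goblet list for Mex3a, the mucin gene Muc2 lay at 0.26 and Tff3 at 0.20, and Fcgbp at −0.56 and the goblet cell factor gene Spdef at −2.02. Summed levels with and without Mex3a were 1687 and 1680 CPM for Paneth, 552 and 587 CPM for goblet, 170.9 and 196.7 CPM for tuft and 817 and 835 CPM for enterocyte markers. For Mex3c, 8 of 10 goblet genes were above 0 (median 0.20, SD 0.55), 1 of 8 tuft genes (−0.28, SD 0.25, although 7 of 10 sets were above 0) and 3 of 11 enterocyte genes (−0.25, SD 0.24). For Mex3d, 6 of 10 goblet genes were above 0 (0.13, SD 0.52), 3 of 11 enterocyte genes (−0.32, SD 0.49) and 0 of 5 endothelial genes (−0.37, SD 0.70). The part of these cell types in the ratios above was not tested.

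Cell by cell, no gene followed a Mex3 gene closely. Over 380 cells, counts were turned into residuals from a depth model and centred within library sets, and the 17217 genes found in 10% of cells or more were ranked by their Pearson correlation with each member. A correlation of 0.2 or more was reached by 25 genes for Mex3a (0.145%), 46 for Mex3b (0.267%), 16 for Mex3d (0.0929%) and 0 for Mex3c (0%). The 3 most alike were Col9a3 (0.27), Ehd3 (0.24) and Cyp39a1 (0.24) for Mex3a, Rwdd2b (0.36), Tubg2 (0.35) and Abcg1 (0.31) for Mex3b, Gm8101, Rnf40 and Idh3a (each just under 0.2) for Mex3c, and Apol7e (0.32), Rabl2 (0.28) and Car4 (0.27) for Mex3d. These are weak correlations over sparse counts from cells of 1 population. Several rested on 1 library set, since without a single set the lowest value was −0.01 for Ehd3, 0.05 for Abcg1, 0.05 for Apol7e, 0.07 for Tubg2 and 0.08 for Col9a3, against 0.17 for Cyp39a1, 0.20 for Rwdd2b and 0.17 for Car4. Within the family the correlations were 0.15 for Mex3a with Mex3b, which share 1 cell, −0.11 for Mex3a with Mex3d, and between −0.04 and −0.01 for the other pairs.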

How the data were processed

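The deposited table held whole-number counts per gene and cell, made by the authors and not normalized. The build is GRCm38.p4, per the submitters' processing notes, while the sources used here do not name the aligner, the counting tool, the annotation release, the use of strand or of molecular identifiers. Groups and library sets came from the sample titles. Symbols (33219 of 33496 identifiers), positions and exon lengths came from GENCODE M21, and 277 identifiers had no symbol. The 20 cells under 10000 counts were left out, all columns belonged to labelled cells, and doublets were not removed, except in 1 alternative that left out the 5% of cells with the most genes. Shares have 95% exact Clopper-Pearson intervals, and a count of 0 allows 3 counts. Thinning to 19169 counts, the 10th percentile of totals, was computed as the exact expected value over all draws. List values were medians over members found in 5% of cells or more. Residuals were Pearson residuals of a negative binomial model (theta 100). The ratio, thinning and likeness steps were tested on simulated counts. The simulated gate held most cells and library sets did not differ, so gates as small as those of Mex3a and Mex3d were not covered. Named genes were the members, the reported targets, the 2 highest and 2 lowest genes of each list described, the 3 most alike genes of each member, Mki67 and Top2a, and genes the sort should lack. Marker lists of other cell types are given by counts and medians, with genes named for 1 of them, and 1 further gene under the rule is not reported here. The members and lists were chosen with earlier results of these data known. Python 3.11.15, numpy 2.4.6, pandas 2.3.3, scipy 1.17.1 and matplotlib 3.10.9 were used.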

Additional observations from a re-analysis of the deposited data

Results flagged for a closer look

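The 20 cells left out for totals under 10000 counts were in no comparison, and they too held a Mex3 signal. Mex3c had 8 summed counts in 7 of these cells, above the 3 counts that a count of 0 allows, or 53.4 CPM of their summed totals against 62.4 CPM in the kept cells. Mex3a had 2 counts in 2 of these cells, Mex3d had 1 count and Mex3b had 0.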

How the results depend on the processing

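Calling a cell by 2 counts or more lowered the share of cells to 4.74% for Mex3a, 1.05% for Mex3b, 42.4% for Mex3c and 7.37% for Mex3d, and the share with 2 or more members to 6.58%. Cells with both genes over the product of their shares then came to 5.28 for Mex3a with Mex3b, 1.44 for Mex3a with Mex3c, 0 for Mex3a with Mex3d and 0 for Mex3b with Mex3d, against 0.368, 0.991, 0.404 and 1.73 at 1 count or more. The value for Mex3a with Mex3b rests on 1 cell. Thinning to the 10th percentile of totals gave shares of 9.05% for Mex3a, 3.65% for Mex3b and 56.3% for Mex3c, and 14.1% of cells with 2 or more members. The genes named as most alike are not stable: with log2(CPM + 1) without centring, 0 of 3 were kept for Mex3a, Mex3b and Mex3c, and with genes in 1% of cells or more 0 of 3 for Mex3a, Mex3b and Mex3c and 1 of 3 for Mex3d. Leaving out each library set in turn kept 0 to 3 of them for Mex3a, Mex3b and Mex3d and 0 to 1 for Mex3c. Without single sets the Mex3a with Mex3b ratio was 0 to 0.489, that of Mex3b with Mex3d 0.933 to 2.23 (lowest without set 3), the Mex3d share 12.6 to 17.5% and the Mex3c share 64.4 to 68.4%. The other alternatives (no minimum of total counts, a minimum of 20000 counts, other scalings, a pseudocount of 5 CPM, no list filter, the full-depth gate, thinning to the 25th percentile, cells with the most genes left out) moved no value beyond its spread or interval. No paired analysis was possible because the series has 1 group. The members' few counts limit every share, pair and ratio given, and without named animals nothing here measures variation between mice.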
